A study of Homo sapiens with 28 samples.

Results

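Canonical histone genes were the genes whose symbols start with HIST1H, HIST2H, HIST3H or HIST4H, and 71 of the 19662 genes measured by RNA-Seq in PC3 and LNCaP prostate cancer cells carried such a symbol. A member was tested in a cell line where it reached 1 RPKM (reads scaled to gene length and to the mapped reads of the library) in at least 2 of the 8 libraries, which kept 60 members of 12214 genes in PC3 and 44 of 12283 in LNCaP. All 44 members tested in LNCaP were also tested in PC3, 16 were tested in PC3 only, and 11 stayed below the limit in both lines. Of the 71, 6 encode linker histone H1, 17 encode H2A, 18 H2B, 15 H3 and 15 H4.

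The study asked what the transcription factor ONECUT2 does in prostate cancer cells with and without low oxygen, and 16 of its 28 samples were the RNA-Seq libraries used here. PC3, a prostate cancer line with small cell neuroendocrine features, was transfected with a control siRNA (siCtrl) or with siRNA against ONECUT2 (siOC2) and kept in normoxia or in hypoxia at 0.2% O2, with 2 libraries per group. The siOC2 libraries of a group came from different siRNAs, siRNA1 and siRNA2, so each siRNA has 1 library per oxygen condition. LNCaP, a prostate adenocarcinoma line, carried an empty vector or a Flag-OC2 vector that overexpresses Flag-tagged ONECUT2 from a viral CMV promoter, again in normoxia and in hypoxia with 2 libraries per group. Nothing in the labels says that the libraries of a group came from separate cultures, so the tests measure the spread between libraries, which may be technical. In PC3 that spread also holds the difference between siRNA1 and siRNA2, and it enters every PC3 comparison.

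Canonical histones package newly copied DNA, and their genes are switched on together in S phase. H2A, H2B, H3 and H4 form the nucleosome core, and H1 binds the linker DNA between nucleosomes. Their mRNAs end in a conserved stem-loop, bound by the protein SLBP, in place of a poly(A) tail, although some histone genes also give polyadenylated transcripts when the RNA runs on past the stem-loop. The libraries were made from poly(A) RNA, so each value below is the histone RNA that passed this selection. What share of a gene's RNA carried a tail was not measured.

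The 66 members with an annotated gene and stop codon (GRCh37, GENCODE) all had a stem-loop within 22 to 67 bases after the stop codon. HIST1H2BF, HIST1H2BG, HIST1H4B, HIST1H4F and HIST2H2AA3 were not matched to that annotation. The set below gives the stem-loop, in the 3′ UTR, for members that carry the results: the most abundant H1 and H4 gene of PC3, the most abundant H2A, H2B and H4 genes of LNCaP, the H3 gene with the smallest p-value in PC3, and HIST2H4A, which moved against HIST1H4H in LNCaP. Capitals mark the paired arms of the stem, and the 4 bases between them are the loop.
HIST1H1D (chr6:26234440-26234465, minus strand): taaacGGCTCTtttcAGAGCCaccca
HIST1H2AC (chr6:26124892-26124917, plus strand): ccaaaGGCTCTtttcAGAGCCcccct
HIST1H2BK (chr6:27114140-27114165, minus strand): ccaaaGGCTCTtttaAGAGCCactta
HIST1H3B (chr6:26031820-26031845, minus strand): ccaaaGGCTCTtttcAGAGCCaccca
HIST1H4C (chr6:26104540-26104565, plus strand): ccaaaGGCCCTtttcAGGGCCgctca
HIST1H4H (chr6:26285354-26285379, minus strand): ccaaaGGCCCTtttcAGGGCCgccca
HIST2H4A (chr1:149804591-149804616, plus strand): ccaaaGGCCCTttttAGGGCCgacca
The arms and loop read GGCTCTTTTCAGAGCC in 39 members, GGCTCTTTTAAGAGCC in 9, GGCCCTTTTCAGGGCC in 8 and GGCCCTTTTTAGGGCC in 4, and 6 members each had a variant of their own. The last 2 of these common forms were found in H4 genes alone. HIST1H4C and HIST1H4H share the same arms and loop.

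Position past the stem-loop differed between members. In 48 of the 66 the annotated gene ended within 100 bases of the stop codon, and in the other 18 at least 1 annotated transcript ran further, from 384 bases past the stop codon upward. HIST1H4H (chr6:26277837-26285866, minus strand) has 3 annotated transcripts of up to 3 exons and runs 1712 bases past its stop codon; HIST2H2BE (chr1:149856009-149858232, minus strand) runs 1801 bases past it. HIST1H3B (chr6:26031817-26032327, minus strand) ends 61 bases after its stop codon in a single exon. Most members lay in the large cluster on chromosome 6 (51 of 66), with 14 on chromosome 1 and HIST4H4 on chromosome 12. Promoter sequences from RefSeq were matched for 66 members, and 61 of these were found in GRCh37. The 120 bases before the RefSeq start of 6 genes are given to show how the classes differ, in capitals where a searched motif occurs on either strand. The octamer is ATTTGCAT, the site of the factor POU2F1. The CCAAT box reads ATTGG on the other strand. The TATA box was searched as TATAAA. In H4 promoters the site of the factor HINFP holds GTCCG.
HIST1H1D (chr6:26235216-26235335, minus strand): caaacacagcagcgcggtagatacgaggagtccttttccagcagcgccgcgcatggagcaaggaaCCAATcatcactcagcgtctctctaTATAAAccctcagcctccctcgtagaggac
HIST1H2AJ (chr6:27782556-27782675, minus strand): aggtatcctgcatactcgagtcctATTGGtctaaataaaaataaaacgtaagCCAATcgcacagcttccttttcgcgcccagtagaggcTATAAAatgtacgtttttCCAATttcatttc
HIST1H2BK (chr6:27114635-27114754, minus strand): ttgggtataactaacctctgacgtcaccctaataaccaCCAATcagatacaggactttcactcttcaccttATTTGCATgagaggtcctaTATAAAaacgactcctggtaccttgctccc
HIST1H3B (chr6:26032328-26032447, minus strand): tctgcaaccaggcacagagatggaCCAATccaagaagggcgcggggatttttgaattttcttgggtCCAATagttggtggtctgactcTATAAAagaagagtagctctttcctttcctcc
HIST1H4H (chr6:26285763-26285882, minus strand): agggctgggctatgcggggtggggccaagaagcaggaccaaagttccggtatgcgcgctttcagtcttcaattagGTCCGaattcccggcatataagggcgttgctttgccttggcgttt
HIST2H4A (chr1:149804101-149804220, plus strand): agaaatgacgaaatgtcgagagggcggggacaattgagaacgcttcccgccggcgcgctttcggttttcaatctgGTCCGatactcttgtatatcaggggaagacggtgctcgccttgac
In the 250 bases before the start, ATTTGCAT on either strand was found in 14 of 18 H2B and 11 of 16 H2A promoters and in 0 of 6 H1, 0 of 13 H3 and 0 of 13 H4 promoters, against 1.63% of 35116 promoters of all genes. The octamer of HIST1H2AJ lies further upstream than the bases shown. CCAAT was found in all 6 H1, 16 H2A, 18 H2B and 13 H3 promoters but in 3 of 13 H4 promoters (32.0% of all promoters). GTCCG showed the opposite division, with 12 of 13 H4 promoters and 4 of the 53 others (24.2% of all promoters), and TATAAA was found in 44 of 66 (10.7% of all promoters). A match shows only that these letters are present.

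The deposited values carry no read totals. Relative depth, read from the steps between low RPKM values, ran from 0.348 to 1.15 of siCtrl normoxia library 2 in PC3, with 3 shallow libraries (siCtrl normoxia 1 at 0.418, siCtrl hypoxia 2 at 0.382 and siOC2 hypoxia siRNA1 at 0.348), and from 0.548 to 1.0 of the deepest library in LNCaP. ONECUT2 read 1.77 and 1.16 RPKM in siCtrl and 0.276 and 0.204 in siOC2 libraries in normoxia, and 0.648 and 0.550 against 0.125 and 0.214 in hypoxia. In LNCaP it read 2.89 to 11.5 RPKM with the empty vector and has no value in the table for the 4 Flag-OC2 libraries, so overexpression could not be checked. The lines matched their names: LNCaP had KLK3 (prostate-specific antigen) at 1842 to 3997 RPKM, whereas PC3 had KLK3 at 0 in 8 of 8 libraries and CD44 at 171 to 661. Markers of other cells were near 0, with PTPRC (leukocytes) at most 0.0635 and LUM (fibroblasts) at most 1.34 RPKM in PC3, and 0 and 0.336 in LNCaP; PECAM1 was not in the tables. Some members are near-identical copies, and the deposited values bear this: HIST2H3A over HIST2H3C gave a ratio of 0.989 to 1.0 across the PC3 libraries and 0.993 to 1.0 across the LNCaP libraries, so the values of HIST2H3A/C, HIST2H2AA3/4, HIST2H4A/B and HIST1H4J/K are not independent of each other. HIST1H2AC, HIST1H2AD, HIST1H3D, HIST3H2BB, HIST2H3PS2 and the pair HIST1H2AM and HIST1H3J also overlap other annotated genes on their own strand, and HIST1H2BC, HIST1H2BE, HIST1H4H, HIST2H2AB, HIST2H2BF and HIST2H3PS2 overlap genes on the other strand, so their reads may be shared.

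Canonical histone RNA was abundant in the PC3 libraries and much scarcer in those of LNCaP. The members took 0.428 to 2.09% of the summed RPKM of a PC3 library and 0.107 to 0.187% of a LNCaP library. Mean levels of the tested members had a median of 66.0 RPKM in PC3 (0.45 to 453) and 9.70 RPKM in LNCaP (0.71 to 205). At least 10 RPKM on average was reached by 50 of the 71 members in PC3 and 19 in LNCaP, and at least 100 RPKM by 18 and 3. The tables were made separately for each line, so these levels stand side by side without a test.

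The highest member of each class differed between the lines. In PC3 they were HIST1H1D (an H1 gene), HIST1H2AJ, HIST1H2BG, HIST1H3C and HIST1H4C, and in LNCaP HIST1H1C, HIST1H2AC, HIST1H2BK, HIST1H3H and HIST1H4H. HIST1H1D, HIST1H3C and HIST1H4C did not reach the limit in LNCaP. The 16 members tested in PC3 only had a median of 54.2 RPKM there and of 0.161 RPKM in LNCaP. The order by 3′ end also differed: members annotated to end within 100 bases of the stop codon had a median of 77.7 RPKM among the 39 tested in PC3 and of 6.55 RPKM among the 25 tested in LNCaP, whereas members annotated to run further had 32.7 RPKM (17 tested) and 23.8 RPKM (16 tested).

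**Figure D1:**
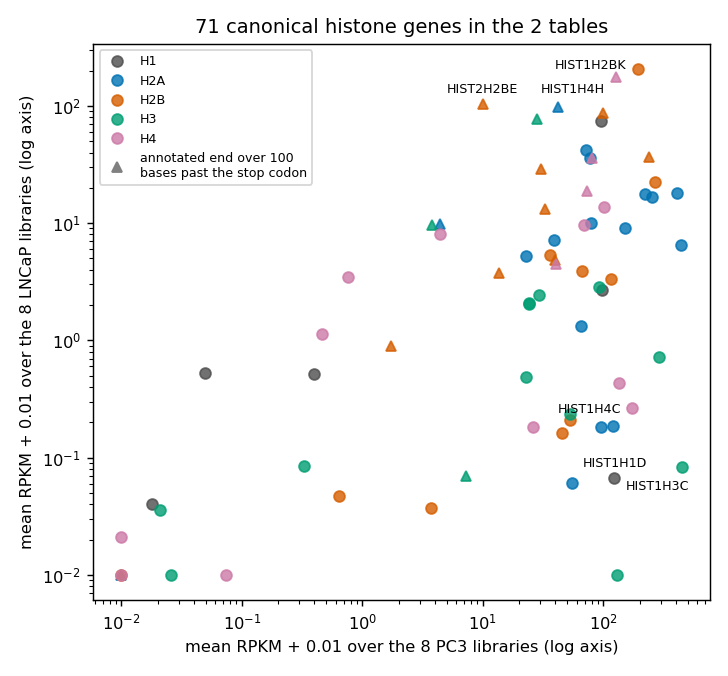
Mean RPKM + 0.01 of the 71 canonical histone genes over the 8 PC3 libraries (x, log axis) and the 8 LNCaP libraries (y, log axis), coloured by class; triangles mark genes with an annotated end over 100 bases past the stop codon. HIST1H3C and HIST1H1D lie far to the right and near 0 in LNCaP, whereas HIST2H2BE and HIST1H4H are among the highest genes of LNCaP.

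ONECUT2 silencing in PC3 went with lower canonical histone RNA in all 5 classes, in normoxia and in hypoxia. The summed RPKM of the 60 tested members was 8759 and 10062 in the siCtrl libraries in normoxia and 4077 and 3230 in the siOC2 libraries. In hypoxia it was 7360 and 7385 against 1718 and 3004. The groups did not overlap in either condition, and the siCtrl mean was 2.58 times the siOC2 mean in normoxia and 3.12 times in hypoxia. Fewer cells in S phase, less histone RNA per cell and a smaller share of it with a poly(A) tail cannot be told apart in these bulk libraries.

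Among single genes, a member was called where limma gave more than a 2-fold difference with P below 0.05 before adjustment, the thresholds of the study. In normoxia 41 of the 60 members were higher in siCtrl than in siOC2 and 0 were lower, where 1.59% of all genes tested were higher and 3.62% lower. In hypoxia 53 of 60 were higher and 0 lower, against 3.95% and 3.55% of all genes. Of the 60, 54 in normoxia and 55 in hypoxia had both siCtrl libraries above both siOC2 libraries (15% and 19.6% of all genes), and 55 and 57 had a fold change above 0 (38.7% and 52.4%). The median fold change was 2.41 in normoxia (1.27 on the log2 scale, −0.13 over all genes) and 3.14 in hypoxia (1.65 on the log2 scale, 0.03 over all genes). The 60 include HIST1H2BI, which reached 1 RPKM only in the siCtrl hypoxia libraries. Its direction in the hypoxia comparison thus carries no weight of its own. After Benjamini-Hochberg adjustment over all genes 0 members passed 0.05 in normoxia and 1 in hypoxia, where 0.00819% and 0.0491% of all genes passed in that direction. Fold changes are on the log2(RPKM + 0.1) scale, which understates those of low genes.

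**Figure D2:**
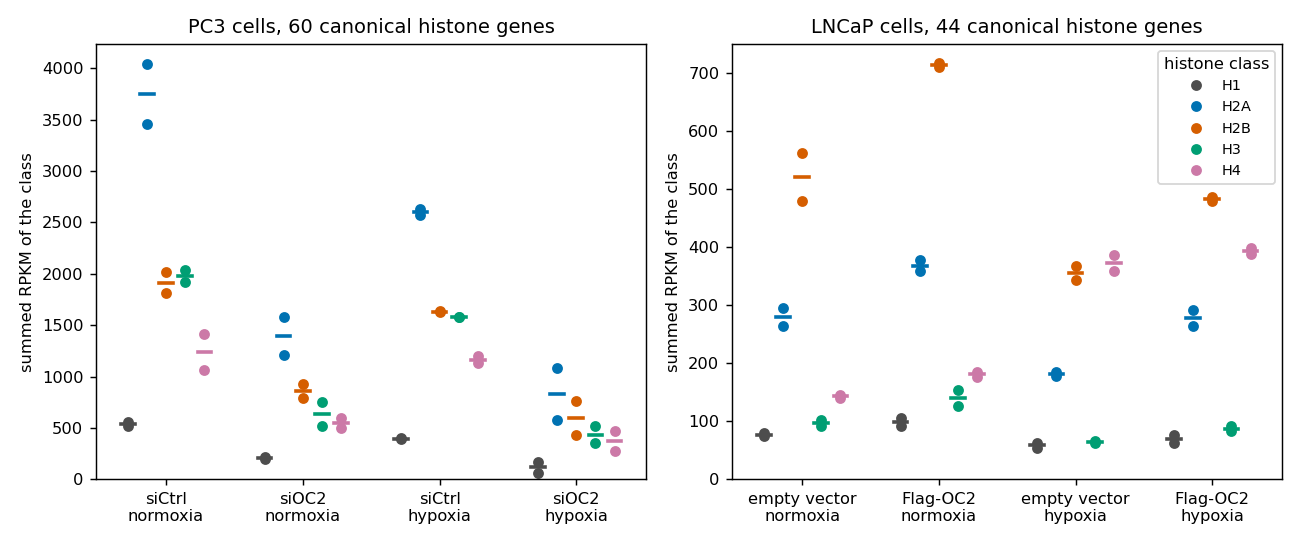
Summed RPKM of the tested members of each histone class in every library (points) with the mean of the 2 libraries of a group (bars), for PC3 (left) and LNCaP (right, another axis range). In PC3 the siOC2 libraries lie below the siCtrl libraries in each class; in LNCaP the H4 sums are higher in hypoxia and the H2A, H2B and H3 sums lower.

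The linker histone genes HIST1H1C, HIST1H1D and HIST1H1E were called in normoxia and in hypoxia (3 of 3; median log2 fold change 1.37 and 1.81). HIST1H1D read 202 and 224 RPKM in siCtrl and 99.0 and 48.8 in siOC2 libraries in normoxia, and 166 and 175 against 24.1 and 51.6 in hypoxia. HIST1H1E read 169 and 177 against 66.0 and 67.5, and 111 and 111 against 18.4 and 53.9. In both genes each siOC2 library was below each siCtrl library. HIST1H1D was 3.06-fold higher with siCtrl in normoxia (log2 1.61 ± 0.43 SE; limma, adjusted p = 0.277) and 4.82-fold in hypoxia (2.27 ± 0.43; adjusted p = 0.0891).

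Of the H2A genes, which encode the core histone that pairs with H2B, 10 of 16 were called in normoxia (median log2 fold change 1.28) and 14 in hypoxia (1.66). HIST1H2AJ, the most abundant, read 698 and 933 RPKM in siCtrl and 335 and 238 in siOC2 libraries in normoxia, and 541 and 513 against 77.5 and 201 in hypoxia. HIST1H2AD read 663 and 800 against 274 and 168, and 524 and 529 against 125 and 163. HIST1H2AM read 385 and 439 against 140 and 111, and 268 and 265 against 57.8 and 93.9. The siOC2 libraries of these 3 genes were all below the siCtrl libraries, and in hypoxia the siRNA1 library was the lowest. HIST1H2AB read 168 and 165 against 65.0 and 40.5 RPKM in normoxia, and 136 and 118 against 31.6 and 40.8 in hypoxia. HIST1H2AH read 196 and 238 against 88.3 and 50.9, and 150 and 150 against 36.7 and 46.5. HIST1H2AE read 272 and 282 against 110 and 73.1, and 177 and 187 against 38.4 and 60.8. These 6 genes were 2.86-fold (HIST1H2AJ) to 3.40-fold (HIST1H2AD) higher with siCtrl in normoxia and 3.52-fold (HIST1H2AB) to 4.22-fold (HIST1H2AJ) in hypoxia. The adjusted p of HIST1H2AD was 0.124 in normoxia and 0.0574 in hypoxia (limma), and that of HIST1H2AJ 0.299 and 0.101.

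Of the H2B genes 10 of 17 were called in normoxia (median log2 fold change 1.12) and 15 in hypoxia (1.61). The 17 include HIST1H2BI, which reached 1 RPKM only in the siCtrl hypoxia libraries. HIST1H2BG read 386 and 442 RPKM in siCtrl and 185 and 161 in siOC2 libraries in normoxia, and 367 and 369 against 83.0 and 165 in hypoxia. HIST1H2BD read 125 and 144 against 63.7 and 50.3, and 156 and 145 against 55.3 and 52.7. Both genes were separated between the groups, and siRNA1 and siRNA2 gave nearly the same level of HIST1H2BD in hypoxia. HIST1H2BG was 2.39-fold higher with siCtrl in normoxia and 3.14-fold in hypoxia, and HIST1H2BD 2.37-fold and 2.79-fold (limma, adjusted p = 0.167 and 0.0574 for HIST1H2BD). The 23 tested H2A and H2B genes with an octamer in the promoter had a median log2 fold change of 1.26 in normoxia and 1.65 in hypoxia, and the 9 without 0.94 and 1.48.

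H3 genes had the largest median in normoxia, 1.52 on the log2 scale (1.70 in hypoxia), and 11 of 12 were called in each condition. HIST1H3B read 502 and 526 RPKM in siCtrl and 157 and 121 in siOC2 libraries in normoxia, and 412 and 410 against 92.0 and 111 in hypoxia. Here the libraries of a group were close and the groups far apart. The difference was 3.72-fold in normoxia (log2 1.90 ± 0.23 SE, limma, adjusted p = 0.0603) and 4.06-fold in hypoxia (2.02 ± 0.23, adjusted p = 0.0388). In hypoxia HIST1H3B was the 1 member past the adjusted threshold. HIST1H3C read 686 and 760 against 306 and 219 RPKM in normoxia, and 645 and 611 against 159 and 242 in hypoxia. HIST1H3A read 89.1 and 98.2 against 36.1 and 17.5, and 66.9 and 74.1 against 19.7 and 18.3. HIST1H3F read 220 and 239 against 82.8 and 73.9, and 166 and 181 against 19.0 and 53.6. All 3 were separated between the groups in both conditions. By size, HIST1H3D (4.81-fold) came first in normoxia, with 174 and 172 RPKM in siCtrl and 66.3 and 19.5 in siOC2 libraries, and HIST1H3F (5.41-fold) in hypoxia.

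Of the H4 genes 7 of 12 were called in normoxia (median log2 fold change 1.12) and 10 in hypoxia (1.60). HIST1H4C read 221 and 294 RPKM in siCtrl and 114 and 94.4 in siOC2 libraries in normoxia, and 262 and 251 against 57.9 and 87.3 in hypoxia. HIST1H4H read 188 and 233 against 67.5 and 66.1, and 180 and 187 against 33.8 and 63.7. Both lay lower in each siOC2 library than in each siCtrl library. HIST1H4C was 2.45-fold higher with siCtrl in normoxia (limma, adjusted p = 0.192) and 3.61-fold in hypoxia (adjusted p = 0.0574), and HIST1H4H 3.13-fold and 3.94-fold.

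**Figure D3:**
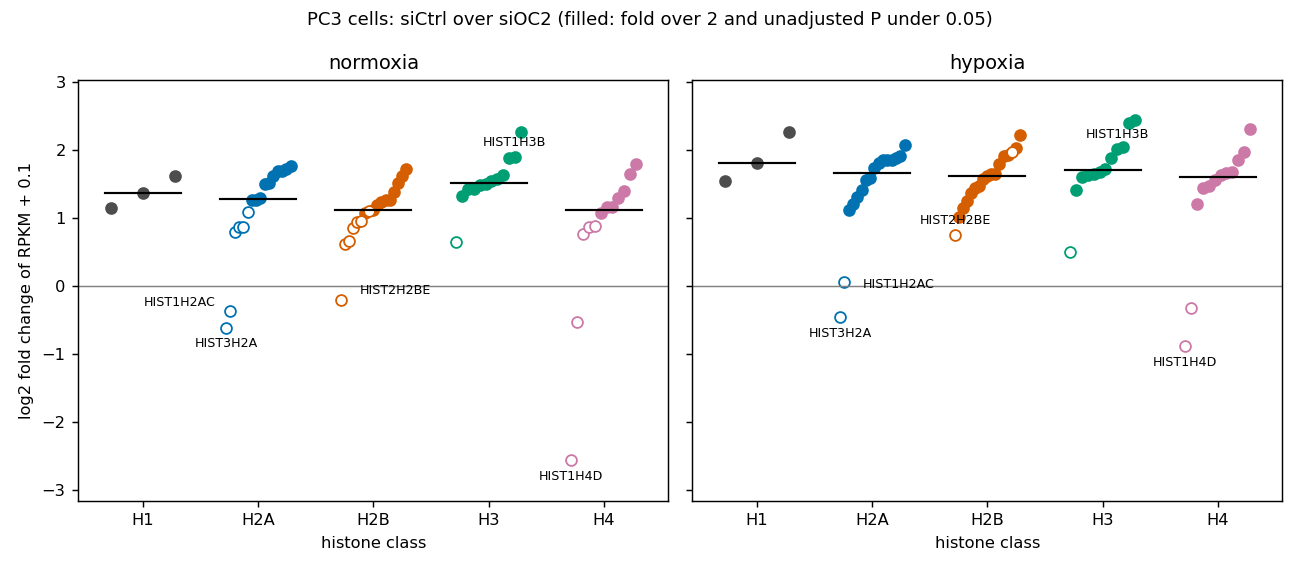
Log2 fold change of RPKM + 0.1, siCtrl over siOC2, of the 60 canonical histone genes tested in PC3, by class, in normoxia (left) and hypoxia (right); filled points passed fold over 2 and unadjusted P under 0.05, and black bars are class medians. In normoxia 41 and in hypoxia 53 points are filled, all above 0.

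A few members did not follow. In normoxia 19 of 60 were not called, and 5 of these lay below 0: HIST1H2AC, HIST2H2BE, HIST3H2A, HIST1H4I and HIST1H4D. HIST1H2AC read 34.8 and 43.1 RPKM in siCtrl and 40.5 and 61.9 in siOC2 libraries in normoxia, and 36.1 and 36.1 against 18.8 and 64.4 in hypoxia. HIST2H2BE read 8.64 and 8.70 against 9.71 and 10.3, and 12.1 and 12.8 against 4.05 and 13.4. HIST3H2A read 3.52 and 4.45 against 4.30 and 8.64, and 2.16 and 3.05 against 1.76 and 7.08. In hypoxia the siRNA1 library of these 3 genes lay below the siCtrl libraries and the siRNA2 library above them. HIST1H4D was near 0, with 0 and 0.22 RPKM in siCtrl and 0.59 and 1.54 in siOC2 libraries in normoxia and at most 1.02 in hypoxia, and it passed the limit of 1 RPKM only through the siRNA2 libraries, as did HIST1H4I. Neither HIST1H2AC nor HIST2H2BE is scarce in LNCaP. Both of them and HIST3H2A belong to the 18 genes annotated to run past the stem-loop. HIST1H4I and HIST1H4D are annotated to end within 100 bases of the stop codon. In normoxia 14 of the 17 tested members annotated to run further lay above 0, and 37 of the 39 annotated to end within 100 bases. Members annotated to end within 100 bases had a median log2 fold change of 1.43 in normoxia and 1.81 in hypoxia (29 and 36 of 39 called), and those annotated to run further 1.07 and 1.48 (9 and 13 of 17 called).

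The siRNAs moved the members the same way when each was set against the siCtrl mean. The ONECUT2 siRNAs listed by the study have overlapping target sequences, and both were set against the same siCtrl libraries. Their agreement is thus not that of independent siRNAs. In normoxia siRNA1 gave a median log2 difference of 1.10 with 39 of 60 members over 2-fold, and siRNA2 one of 1.43 with 45. In hypoxia siRNA1 gave 2.03 with 55 of 60, and siRNA2 1.31 with 43. The siRNA1 library in hypoxia was shallow, and 18.1% of all genes were over 2-fold higher in siCtrl there, against 4.82 to 5.19% for the other 3 libraries. Without the 3 shallow libraries the members' median was 1.26 in hypoxia and 1.35 in normoxia, a comparison chosen after the data were seen. In hypoxia this sets a lone siCtrl library against the siRNA2 library alone, and in normoxia a lone siCtrl library against both siRNAs.

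Few members were called for hypoxia itself in PC3. With siCtrl the summed RPKM went from 8759 and 10062 to 7360 and 7385, and with siOC2 from 4077 and 3230 to 1718 and 3004. The ratio of the means was 0.783 and 0.646. With siCtrl 1 member was called higher and 1 lower in hypoxia (2.23% and 1.63% of all genes), and the members' median was −0.32 on the log2 scale (−0.07 over all genes). With siOC2 0 were called higher and 5 lower (1.11% and 2.35% of all genes), and the median was −0.62 (−0.22 over all genes). These comparisons share all their libraries with the silencing comparisons.

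HIST1H2AL was the member called lower in both. It read 123 and 141 RPKM in normoxia and 44.03 and 47.6 in hypoxia with siCtrl, and 75.0 and 51.6 against 9.08 and 32.1 with siOC2. It did not overlap between oxygen conditions with either siRNA and fell by 1.53 ± 0.52 (SE) and by 1.86 on the log2 scale (limma, adjusted p = 0.508 and 0.719). HIST1H2BI, called higher with siCtrl, read 0.28 and 0.23 RPKM in normoxia and 1.33 and 2.07 in hypoxia, and it passed the limit only through those hypoxia libraries. The other 4 called with siOC2 were HIST1H3F, HIST1H2AJ, HIST1H1E and HIST1H3H. HIST1H3H read 21.6 and 19.0 RPKM with siOC2 in normoxia and 6.08 and 14.6 in hypoxia, and 53.5 and 48.7 against 29.3 and 33.6 with siCtrl. With siOC2 the members' median was −0.28 without the siRNA1 hypoxia library and −1.05 without the siRNA2 one, the extremes when 1 library was left out. All genes shifted between these libraries as well. In hypoxia the log2 difference of siCtrl over siRNA1 had a median of 0.28 over all genes, and that over siRNA2 −0.23. With siCtrl the members' median ran from −0.38 to −0.26 when 1 library was left out.

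Whether silencing acted differently in hypoxia was tested as the interaction of ONECUT2 and oxygen, and 0 of 60 members were called by the same thresholds (limma; 0.696% of all genes higher and 0.246% lower), with 0 members at P below 0.05 before adjustment. The median interaction was 0.33 on the log2 scale against 0.17 over all genes. Leaving out the siRNA2 hypoxia library gave a median of 0.84, and leaving out the siRNA1 one gave −0.06. The sign of this median thus depends on these 2 libraries.

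In LNCaP, Flag-OC2 went with slightly higher canonical histone RNA. The summed RPKM of the 44 tested members was 1493 and 1514 with Flag-OC2 and 1057 and 1183 with the empty vector in normoxia, and 1323 and 1301 against 1026 and 1043 in hypoxia. The groups did not overlap, and the ratio of the means was 1.34 in normoxia and 1.27 in hypoxia. In normoxia 0 members were called (limma; 2.81% of all genes higher, 0.48% lower), with 20 at P below 0.05 before adjustment in either direction (24.1% of all genes), and 6 passed an adjusted p of 0.05 in the higher direction (3.56% of all genes). In hypoxia 3 were called higher and 0 lower (3.7% and 0.773% of all genes), and 16 passed the adjusted threshold in the higher direction and 1 in the lower (6.72% and 4.82% of all genes). The median log2 fold change was 0.36 in normoxia and 0.44 in hypoxia (−0.08 and −0.01 over all genes), with 40 and 37 of 44 members above 0 (38.7% and 48.2% of all genes). The 44 include HIST1H3B, which reached 1 RPKM only in the Flag-OC2 normoxia libraries. Its direction in the normoxia comparison thus carries no weight of its own.

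The 3 members called in hypoxia were HIST2H2BF, HIST1H2AI and HIST1H3B. HIST2H2BF, an H2B gene on chromosome 1, read 14.1 and 15.3 RPKM with Flag-OC2 and 6.07 and 7.002 with the empty vector in hypoxia, and 20.1 and 21.7 against 10.7 and 10.7 in normoxia. HIST1H2AI read 11.2 and 12.1 against 5.50 and 5.85 in hypoxia, and 11.1 and 14.5 against 9.83 and 9.89 in normoxia. HIST1H3B read 0.55 and 0.53 against 0.20 and 0.18 in hypoxia, and 1.03 and 1.86 against 0.68 and 0.65 in normoxia. In all 3 genes the Flag-OC2 libraries were above the empty-vector libraries in both conditions, but HIST1H3B passed the limit of 1 RPKM only through the Flag-OC2 libraries in normoxia. In hypoxia HIST2H2BF was 2.24-fold higher (log2 1.16 ± 0.12 SE; limma, adjusted p = 0.0013), HIST1H2AI 2.03-fold (adjusted p = 0.00483) and HIST1H3B 2.20-fold (adjusted p = 0.0595). HIST2H2BF overlaps FCGR1A on the other strand, and whether the counting used strand is not given in the sources used here.

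The 6 members past the adjusted threshold in normoxia, named after their values were seen, were HIST2H2BF, HIST2H2BE, HIST1H2BG, HIST1H2BF, HIST1H3H and HIST1H2BD, so 5 of them encode H2B. HIST2H2BE read 167 and 170 RPKM with Flag-OC2 and 85.1 and 106 with the empty vector in normoxia, and 94.9 and 94.7 against 56.7 and 56.7 in hypoxia. HIST1H2BG read 18.8 and 20.2 against 12.7 and 8.73, and 39.3 and 35.6 against 21.3 and 24.2. These groups were separated, and HIST2H2BE was 1.77-fold (limma, adjusted p = 0.00732) and HIST1H2BG 1.84-fold (adjusted p = 0.0287) higher with Flag-OC2 in normoxia. The H1 gene HIST1H1C, the most abundant of its class, read 89.7 and 104 against 77.3 and 73.0 in normoxia, and 60.1 and 73.5 against 51.9 and 60.6 in hypoxia. HIST1H2AC read 118 and 121 against 95.7 and 87.0, and 124 and 109 against 62.7 and 67.5. Class medians lay between 0.26 (H1) and 0.54 (H3) on the log2 scale in normoxia and between 0.31 (H3) and 0.50 (H2A) in hypoxia. The H3 median in normoxia includes HIST1H3B, which reached the RPKM limit only with Flag-OC2 in normoxia.

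HIST1H2BO and HIST1H2BJ were the members called for the interaction of Flag-OC2 and oxygen, and neither passed adjustment. HIST1H2BO read 4.09 and 4.17 RPKM with Flag-OC2 and 3.44 and 3.34 with the empty vector in normoxia, and 2.11 and 1.95 against 3.51 and 3.87 in hypoxia. HIST1H2BJ read 39.0 and 46.3 against 26.9 and 24.5, and 13.8 and 26.2 against 23.9 and 29.4. The order of the groups turned over for HIST1H2BO, and in hypoxia the groups of HIST1H2BJ overlapped. The interaction was −1.11 ± 0.21 (SE) on the log2 scale for HIST1H2BO (limma, adjusted p = 0.0781) and −1.20 ± 0.37 for HIST1H2BJ (adjusted p = 0.179), the 2 of 44 members called (2.34% of all genes higher, 1.35% lower). Leaving out 1 library at a time gave 1 to 5 calls: 1 without Flag-OC2 hypoxia library 1, 5 without Flag-OC2 normoxia library 1 or Flag-OC2 hypoxia library 2, and 4 without empty-vector hypoxia library 1.

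Hypoxia split the members in LNCaP. The whole sum changed little, with a hypoxia over normoxia ratio of 0.924 for the empty vector and 0.873 for Flag-OC2, but the H4 sum went up 2.60-fold and 2.18-fold. With the empty vector 3 members were called higher and 6 lower in hypoxia (5.6% and 2.34% of all genes), and 4 and 19 passed the adjusted threshold (18.2% and 14.1% of all genes). With Flag-OC2 1 was called higher and 7 lower (5.48% and 1.36% of all genes), and 3 and 18 passed it (18.4% and 8.49%). These counts include members that reached 1 RPKM only in the group where they are high: HIST1H4D, only in hypoxia, HIST3H2BB, only in normoxia, and HIST1H3B with Flag-OC2, only in normoxia with that vector. Their calls between those groups carry no weight of their own. The median log2 fold change was −0.45 and −0.41, against 0.02 and 0.09 over all genes.

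HIST1H4H, an H4 gene annotated to run past its stem-loop, carried the increase. It read 39.8 and 37.1 RPKM with the empty vector and 45.2 and 59.7 with Flag-OC2 in normoxia, and 329 and 300 against 309 and 303 in hypoxia. All 4 hypoxia libraries lay far above all 4 normoxia libraries, and the vectors differed little from each other. It rose 8.15-fold with the empty vector (log2 3.03 ± 0.13 SE; limma, adjusted p = 8.62e-06) and 5.87-fold with Flag-OC2 (2.55 ± 0.13; adjusted p = 2.14e-05), and the interaction was −0.47 (adjusted p = 0.262). Its share of the H4 sum went from 24.5 to 33.7% in the 4 normoxia libraries to 77.5 to 85.1% in the 4 hypoxia libraries. The rest of the H4 sum went the other way, from 100.3 and 109 RPKM to 57.6 and 58.9 with the empty vector and from 139 and 118 to 89.6 and 86.2 with Flag-OC2. HIST1H4H overlaps the antisense gene ENSG00000289447, whose reads cannot be told apart from its own unless the counting used strand, which is not given in the sources used here. In PC3 HIST1H4H gave a log2 fold change of −0.19 in hypoxia with siCtrl and of −0.52 with siOC2, and neither was called.

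**Figure D4:**
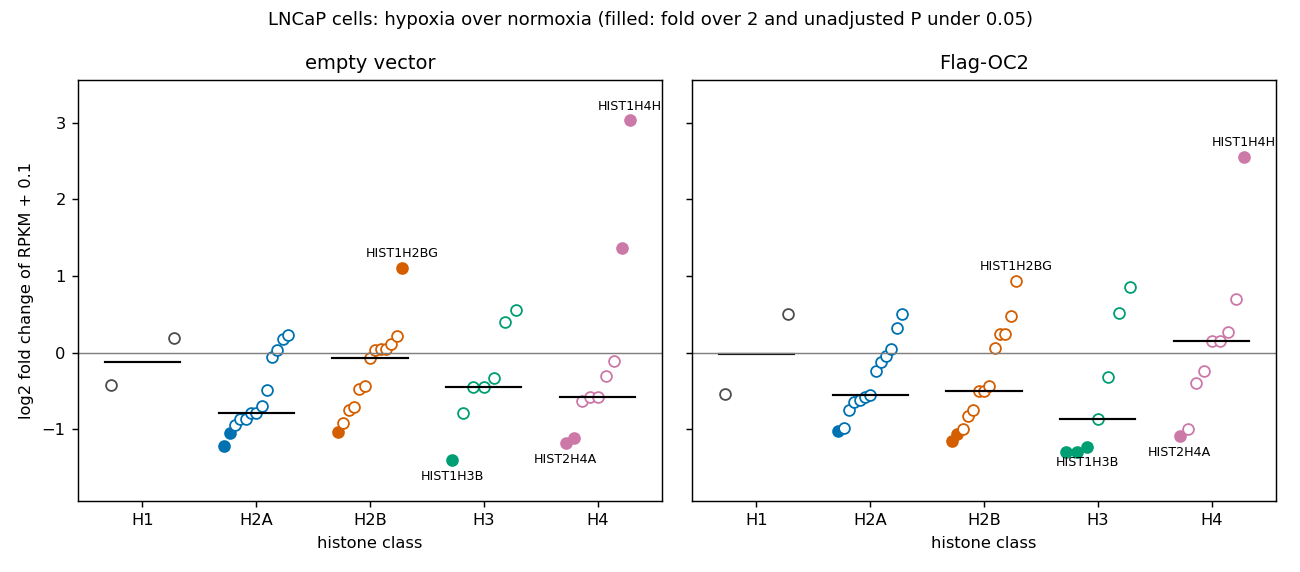
Log2 fold change of RPKM + 0.1, hypoxia over normoxia, of the 44 canonical histone genes tested in LNCaP, by class, with the empty vector (left) and Flag-OC2 (right); filled points passed fold over 2 and unadjusted P under 0.05, and black bars are class medians. HIST1H4H lies at 3.03 and 2.55, far above the other members, and HIST2H4A lies near −1 in both panels.

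The 9 tested members of the HIST2 cluster, on chromosome 1, all lay below 0 in hypoxia, where 52.2% of all genes lay above 0 with the empty vector and 58.7% with Flag-OC2. Their median log2 fold change was −0.86 with the empty vector (7 of 9 past the adjusted threshold) and −0.99 with Flag-OC2 (9 of 9). Of all genes, 14.1% and 8.49% passed it in the lower direction. The 9 are not independent values, since they hold the copies HIST2H3A and HIST2H3C, HIST2H2AA3 and HIST2H2AA4, and HIST2H4A and HIST2H4B. The medians were −0.19 and 0.00 for the 32 members of the HIST1 cluster. The fall was not confined to the HIST2 cluster. The 2 tested members of the HIST3 cluster were lower as well, with medians of −0.91 and −0.65 (2 and 0 past the adjusted threshold). HIST3H2BB, 1 of these, reached 1 RPKM only in normoxia. HIST2H4A read 42.05 and 44.8 RPKM with the empty vector in normoxia and 18.3 and 19.997 in hypoxia, and 57.5 and 52.0 against 24.9 and 26.4 with Flag-OC2. Its near copy HIST2H4B read 21.9 and 23.9 against 9.84 and 11.2, and 28.6 and 27.0 against 13.5 and 14.4. HIST2H2AC read 16.8 and 22.1 against 8.82 and 9.63, and 22.5 and 23.1 against 14.8 and 14.7. None of these groups overlapped. HIST2H4A fell by 1.18 on the log2 scale with the empty vector (limma, adjusted p = 0.000188) and by 1.09 with Flag-OC2 (adjusted p = 0.000405), although it encodes the same class as HIST1H4H. HIST2H2AA4 read 32.3 and 42.8 against 19.99 and 20.8 RPKM with the empty vector, and 66.6 and 49.1 against 28.5 and 27.7 with Flag-OC2. The copies HIST2H3A and HIST2H3C moved together, and HIST2H3A read 2.08 and 2.22 against 1.19 and 2.01, and 3.20 and 3.18 against 1.03 and 1.48. HIST2H2AA4 and HIST2H3A/C were called lower with Flag-OC2 (adjusted p = 0.00446, 0.0104 and 0.0106 in limma) and not with the empty vector; this difference between the vectors was not called for any of the 3. HIST2H2AA3, the near copy of HIST2H2AA4, read 74.1 and 59.5 against 34.1 and 33.1 RPKM with Flag-OC2 and was not called.

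Other members that differed in hypoxia belonged to the HIST1 and HIST3 clusters. The H2B gene HIST1H2BK, the most abundant member in LNCaP, read 222 and 288 RPKM with the empty vector in normoxia and 130 and 138 in hypoxia, and 288 and 296 against 137 and 143 with Flag-OC2. It did not overlap between oxygen conditions, fell by 0.92 on the log2 scale with the empty vector (limma, adjusted p = 0.00149) and by 1.06 with Flag-OC2 (adjusted p = 0.0011), and passed the fold threshold only with Flag-OC2. HIST1H3H, the most abundant H3 gene, which changed by less than 2-fold and was not called, read 74.0 and 86.6 against 44.3 and 48.9, and 107 and 131 against 63.3 and 66.3. HIST1H2AJ read 6.86 and 9.38 against 3.66 and 3.17, and 7.77 and 9.91 against 5.97 and 5.66. HIST3H2BB read 1.33 and 1.08 against 0.45 and 0.63, and 1.27 and 1.04 against 0.71 and 0.58. All 3 were lower in each hypoxia library than in each normoxia library of the same vector. HIST1H3B and HIST1H2BJ, whose values are given above, were lower as well, HIST1H3B with the empty vector (adjusted p = 0.0137 in limma) and HIST1H2BJ with Flag-OC2 (adjusted p = 0.0149). In the other direction HIST1H2BG was 2.14-fold higher in hypoxia with the empty vector (log2 1.10; limma, adjusted p = 0.00262). HIST1H4D, named after its values were seen as the last of the 3 called higher, read 0.37 and 0.61 against 1.15 and 1.68 RPKM with the empty vector, and 0.84 and 0.98 against 1.04 and 2.24 with Flag-OC2.

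**Figure D5:**
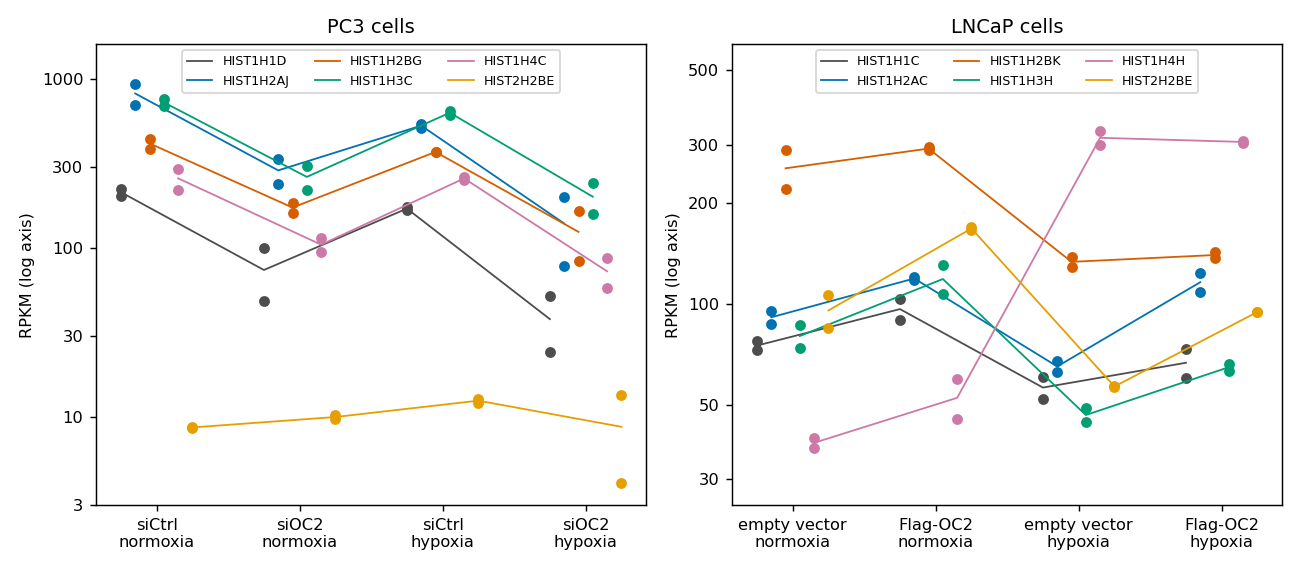
RPKM (log axis) of the most abundant member of each class and of HIST2H2BE in every library (points) with lines joining the group means, in PC3 (left) and LNCaP (right, another axis range). In PC3 5 of the 6 genes are lower in both siOC2 groups than in the siCtrl group at the same oxygen, and HIST2H2BE is not; in LNCaP HIST1H4H is the 1 gene of the 6 that is higher in hypoxia with both vectors.

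Lists of genes that act on histones or in the cell cycle show what else differed between the groups. In PC3, 0 of 18 tested genes for histone mRNA transcription and 3′ end processing were called in either silencing comparison (limma; 0 at P below 0.05 before adjustment; median log2 fold change −0.04 in normoxia and 0.04 in hypoxia). Of 21 histone chaperones 0 were called (2 in normoxia and 1 in hypoxia at P below 0.05 before adjustment; medians 0.04 and 0.22). Of 40 S-phase genes 1 was higher in siCtrl in normoxia and 4 in hypoxia, with 0 lower (medians 0.32 and 0.42), and of 54 G2/M genes 6 were higher in normoxia, and 14 higher and 1 lower in hypoxia (medians 0.63 and 0.85), where 1.59% of all genes were higher in normoxia and 3.95% in hypoxia. All of these medians were below that of the canonical histones (1.27 and 1.65). MCM6, a subunit of the replicative helicase, read 8.75 and 11.04 RPKM in siCtrl and 6.09 and 1.51 in siOC2 libraries in normoxia, and 9.11 and 8.12 against 3.13 and 2.85 in hypoxia (limma, adjusted p = 0.407 in normoxia). The summed S-phase level was 1225 and 1322 RPKM against 1008 and 948 in normoxia, and 1371 and 1194 against 854 and 991 in hypoxia, and its part in the histone result was not tested.

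The genes listed as replication-independent histone variants were counted apart from the canonical genes. In PC3 0 of 12 were called higher and 1 lower with siCtrl in normoxia (1.59% and 3.62% of all genes), and 2 were higher and 1 lower in hypoxia (3.95% and 3.55%), with medians of 0.22 and 0.26. The lower one was H3F3A, which encodes the H3.3 variant. It read 19.96 and 23.1 RPKM in siCtrl and 51.5 and 86.8 in siOC2 libraries in normoxia, and 24.5 and 22.8 against 40.7 and 107 in hypoxia, so each siOC2 library was above each siCtrl library, opposite to the 11 canonical H3 genes called. Its log2 fold change was −1.64 in normoxia (limma, adjusted p = 0.299). H1F0 and H2AFY2 were the variants called higher with siCtrl in hypoxia (1.17 and 1.71 on the log2 scale).

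In LNCaP the cell-cycle lists lay below 0 under Flag-OC2, where the members lay above it. Of their genes 0 were called by fold and P in either oxygen condition (limma), but the S-phase median was −0.30 in normoxia and −0.40 in hypoxia (1 and 11 genes past the adjusted threshold in the lower direction, 1.7% and 4.82% of all genes), and the G2/M median was −0.37 and −0.44 (8 and 20 genes). The processing genes had medians of −0.11 and −0.02. In hypoxia the S-phase median was −0.20 with the empty vector and −0.34 with Flag-OC2, and the G2/M median was 0.01 with both. Of the 40 S-phase genes 10 and 17 were lower past the adjusted threshold (14.1% and 8.49% of all genes). Of the 12 variants 2 passed the adjusted threshold in the higher direction in hypoxia with the empty vector and 6 with Flag-OC2 (18.2% and 18.4% of all genes). In the lower direction 2 and 1 passed it (14.1% and 8.49%). H1F0, a linker variant of cells that have stopped dividing, was higher in hypoxia by 1.32 on the log2 scale with the empty vector and by 1.03 with Flag-OC2, and H2AFZ by 1.10 with the empty vector (limma, adjusted p = 0.00138).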

How the data were processed

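RNA-Seq libraries were made from poly(A) RNA of PC3 and LNCaP cells with the TruSeq Stranded mRNA kit. The authors aligned the reads with STAR 2.4.2a to hg19 (GRCh37) and deposited 1 table of RPKM values per cell line, computed with Cufflinks 2.1.1 against GENCODE genes; the submitters' processing notes list the same tools. Whether the counting used strand, and how reads shared by copies were assigned, is not given in the sources used here. No counts or read totals were used here, so precision rests on the 2 libraries per group.

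A gene was kept where 2 or more of the 8 libraries of a table reached 1 RPKM. Values were analysed as log2(RPKM + 0.1) with limma 3.58.1 (R 4.3.3), with 4 groups per cell line and an intensity trend, separately for the 2 tables. ONECUT2 contrasts are ONECUT2-high over ONECUT2-low, and the interaction is that contrast in hypoxia minus that in normoxia. A gene was called at more than a 2-fold difference with P below 0.05 before adjustment, and adjusted p-values are Benjamini-Hochberg over all genes tested in a contrast (two-sided). The fit was tested on simulated data. Contrasts of a table share libraries, so their results are given side by side only.

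The members, the gene lists and the tests were chosen with earlier results of these data known. Given in every library are the highest member of each class and each member called in a contrast, or the 8 with the smallest P where more were called. Genes of the other lists are given by counts and median, with up to 4 named. A list of RNAs without a poly(A) tail could not be used, since 0 of its 21 genes were in the tables. Positions and stem-loops were read from GRCh37 with GENCODE v44lift37, and promoters from RefSeq. The RPKM values were computed by the authors with an earlier GENCODE release. Gene ends and overlapping genes given here may thus differ from those behind the RPKM values. The stem-loop was taken as the first match after the stop codon to a 6-base stem with a 4-base loop. Alternatives were a pseudocount of 1, no RPKM limit or a limit of 5, upper-quartile scaling, a fit of the compared groups alone, adjusted p-values for calls, a replicate block, and leaving out each library; crossing the replicate numbers and leaving out the 3 shallowest libraries were added after seeing the data. Some markers of the cell lines are not reported here.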

Additional observations from a re-analysis of the deposited data

Results flagged for a closer look

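HIST1H2BJ and HIST1H2BO were singled out because Flag-OC2 gave effects in LNCaP that differed between hypoxia and normoxia by the fold and P of the interaction. The interaction was −1.20 on the log2 scale for HIST1H2BJ, with a Flag-OC2 over empty vector difference of 0.72 in normoxia and −0.48 in hypoxia, and −1.11 for HIST1H2BO, with 0.28 in normoxia and −0.83 in hypoxia. Neither passed Benjamini-Hochberg adjustment over all genes in limma (adjusted p = 0.179 and 0.0781). In hypoxia the 2 Flag-OC2 libraries of HIST1H2BJ were 13.8 and 26.2 RPKM.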

How the results depend on the processing

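Of 166 summary values recomputed under other settings with all libraries or without the shallow ones, 132 stayed within 1.5 times the count or 1 SD of the median given in the report, and 0 turned in sign. Requiring an adjusted p under 0.05 (Benjamini-Hochberg in limma) for a call left 0 of the members in PC3 normoxia, 1 in PC3 hypoxia, 0 and 0 for hypoxia with siCtrl and siOC2, and 0 for the LNCaP interaction. Without the 3 shallowest libraries 26 members were called in PC3 hypoxia with a median of 1.26, and 1 and 0 for hypoxia with siCtrl and siOC2. Upper-quartile scaling moved the median of all genes in the PC3 interaction from 0.17 to 0.01 and in hypoxia with siOC2 from −0.22 to −0.09, where 3 members were then called; a fit of the compared groups alone called 2. A limit of 5 RPKM called 1 member for hypoxia with siCtrl, and no limit called 1 in the PC3 interaction.

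In LNCaP a pseudocount of 1 gave 1 call and a median of 0.37 for Flag-OC2 in hypoxia, 5 calls and −0.38 for hypoxia with the empty vector, 4 calls and −0.36 with Flag-OC2, and 1 call in the interaction. With no limit, Flag-OC2 gave 1 call and 0.31 in normoxia and a median of 0.31 in hypoxia, and hypoxia with Flag-OC2 a median of −0.32. A limit of 5 RPKM gave a median of −0.54 for hypoxia with the empty vector, 5 calls with Flag-OC2 and 1 in the interaction. Upper-quartile scaling gave 2 calls and 0.44 for Flag-OC2 in normoxia, medians of 0.50 in hypoxia and −0.47 for hypoxia with Flag-OC2, and mean sums of 1569 RPKM for Flag-OC2 in normoxia (1503 as deposited) and 998.7 for the empty vector in hypoxia (1035). The causes were not tested.

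Leaving out 1 library at a time gave, in PC3, 35 to 44 calls and medians of 1.10 to 1.43 for silencing in normoxia and 43 to 54 calls and 1.31 to 2.03 in hypoxia, 0 to 2 calls and −0.38 to −0.26 for hypoxia with siCtrl, 0 to 33 calls and −1.05 to −0.28 with siOC2, and 0 to 18 calls and −0.060 to 0.84 for the interaction (5 without the siRNA2 normoxia library). In LNCaP it gave 0 to 2 calls and 0.32 to 0.42 for Flag-OC2 in normoxia (2 without Flag-OC2 library 1, and 1 without either empty-vector library), 2 to 5 calls and 0.42 to 0.49 in hypoxia (5 without Flag-OC2 library 2), 6 to 12 calls and −0.57 to −0.41 for hypoxia with the empty vector, 8 to 11 calls and −0.54 to −0.36 with Flag-OC2, and 1 to 5 calls and 0.055 to 0.17 for the interaction. A lone library in a group is then assumed to vary like the others.

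Replicate numbers do not pair the libraries, apart from the shared siRNA of the siOC2 libraries (same-number correlation 0.618 between oxygen conditions, −0.186 to 0.275 elsewhere). With the number as a replicate block 43 members were called in PC3 normoxia, 53 in PC3 hypoxia and 5 for hypoxia with siOC2, and no other count of calls changed. Crossing the siCtrl numbers gave 41 calls in PC3 normoxia and 2 for hypoxia with siCtrl.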
